A study of Mus musculus with 7 samples.

Results

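A set of 9 crystallin genes was examined in RNA from mouse retinal pigment epithelium (RPE), the pigmented cell layer behind the photoreceptors. They were the alpha crystallins Cryaa and Cryab, the acidic beta crystallins Cryba1, Cryba2 and Cryba4, the basic beta crystallins Crybb1, Crybb2 and Crybb3, and the gamma crystallin Crygs. These 9 genes were chosen by name from the 52740 genes in the table, as crystallins whose RNA in an RPE preparation might come from the RPE or from lens. The study compared RPE from 4 wild-type (WT) mice and 3 LC3b-/- mice, all 24 months of age, with 1 library per mouse. LC3b is the product of Map1lc3b, which acts in autophagy and in LC3-associated phagocytosis, the route by which RPE cells degrade shed photoreceptor tips. The WT mice were C57BL6/J and comprised 3 females and 1 male, and the LC3b-/- mice came from a strain of mixed B6;129P2 origin and comprised 2 females and 1 male. Strain background and loss of LC3b therefore cannot be told apart, and the genotype is spelled LCb-/- in the labels. The lens, cornea and ciliary body were taken out of each eye before RPE sheets were released from the eyecups with hyaluronidase and trypsin.

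Crystallins are the abundant soluble proteins of the lens. The alpha crystallins are small heat shock proteins that bind unfolding proteins, and Cryab is also made in muscle, glia and RPE. The beta and gamma crystallins share a fold and are best known as structural proteins of lens fibre cells, although several are also made in retina. Cryba1 has been linked to lysosomal function in RPE and astrocytes.

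The targeted gene was checked first. Map1lc3b had 2778 to 4444 counts in the WT libraries and 168 to 332 counts in the LC3b-/- libraries, a log2 fold change of -3.98 (SE 0.15, adjusted p = 0.000186, quasi-likelihood test of edgeR, Benjamini-Hochberg). The 7 libraries held 24495952 to 35616134 counts. A count of 3, taken as the limit that a count of 0 allows, was worth 0.0752 to 0.124 counts per 1000000 (CPM) in 1 library, on the scale of the trimmed mean of M values (TMM), and this limit covers counting error only. The labels name separate mice, so p-values measure the spread between these 7 animals. The mouse names also carry numbers that the genotypes never share and whose meaning is not stated, so whatever they mark cannot be told apart from genotype. RNA of other eye tissues differed between libraries. Summed markers of the ocular surface were at 32.4 to 3284 CPM in WT and 3649 to 27900 CPM in LC3b-/-, and summed photoreceptor markers were at 299 to 22180 CPM and 106 to 7638 CPM. All 16 RPE markers on the list were detected and tested, and their sum was at 33210 to 51110 CPM in WT and 15340 to 30770 CPM in LC3b-/-. The groups did not overlap for the RPE sum or the ocular surface sum. In bulk samples such as these, fewer cells of a type and less RNA per cell cannot be told apart.

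The promoters of the lens-type members are shown because their shared letters can be set beside the level of each mRNA. RefSeq promoter windows on GRCm38.p6, running from 250 bases before to 50 bases after the start of transcription, were matched for 8 of the 9 members, all but Cryab. Searching both strands, TGCTGA, the core of the element bound by large Maf proteins, was in 7 of the 8 windows and in 19.5% of all 32851 promoter windows. The core promoter motif TATAAA was in 4 of the 8 and in 13.6% of all windows. GAANNTTC, the core of the heat shock element, was in 0 of the 8 and in 7.86% of all windows. The 150 bases before the start are given for Cryaa (chr17:31677781-31677930, plus strand), Cryba1 (chr11:77725294-77725443, minus strand), Crybb1 (chr5:112255670-112255819, plus strand) and Crybb3 (chr5:113081585-113081734, minus strand). Capitals mark TGCTGA, or TCAGCA where it lies on the other strand, and TATAAA.
Cryaa: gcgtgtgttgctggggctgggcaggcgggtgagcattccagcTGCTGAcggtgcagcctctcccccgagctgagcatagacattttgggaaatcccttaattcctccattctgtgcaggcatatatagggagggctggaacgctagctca
Cryba1: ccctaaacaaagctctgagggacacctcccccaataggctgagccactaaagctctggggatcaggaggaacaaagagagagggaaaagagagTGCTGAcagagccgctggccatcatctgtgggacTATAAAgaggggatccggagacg
Crybb1: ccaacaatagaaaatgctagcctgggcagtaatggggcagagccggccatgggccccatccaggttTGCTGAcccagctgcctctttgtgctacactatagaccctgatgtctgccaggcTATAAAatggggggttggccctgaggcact
Crybb3: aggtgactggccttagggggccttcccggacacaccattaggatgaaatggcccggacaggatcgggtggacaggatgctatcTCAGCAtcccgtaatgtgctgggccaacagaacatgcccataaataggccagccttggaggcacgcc
The Maf element core began 108 bases before the start in Cryaa, 57 in Cryba1, 84 in Crybb1 and 67 in Crybb3. TATAAA began 23 bases before the start in Cryba1 and 30 in Crybb1, and no marked motifs overlapped. A match of letters is not a bound site.

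Among these 9 genes, 1 was abundant. Cryab had 54145 counts over the 7 libraries, and the other 8 together had 293. Cryab made up 99.12 to 99.63% of the members' counts in each library. Only Cryab reached 10 counts in every library, 3 members had a count in every library, and Cryba1 had none in any. Per kilobase of transcript, Cryab was the highest member in every library. On that scale Crybb3 had the next highest mean in both genotypes, but Crybb1 was above it in WT F2 and Cryba4 was above it in WT M1.

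**Figure D1:**
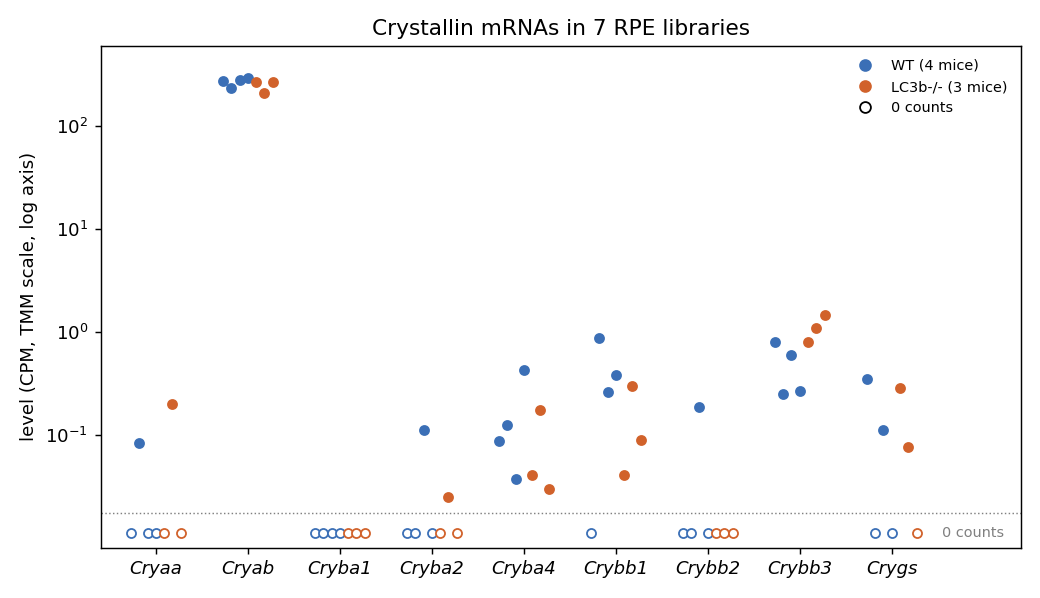
Level of each of the 9 crystallin mRNAs in each of the 7 libraries, in CPM on a log axis, with 1 point per mouse (blue, WT; orange, LC3b-/-) and open points for 0 counts. Cryab sits between 210.1 and 291.1 CPM in every library, Crybb3 between 0.249 and 1.45 CPM, and Cryba1 at 0 counts in all 7.

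Of the members, 2 passed the filter on low counts, Cryab and Crybb3. Of these, 0 were called differentially expressed between LC3b-/- and WT, where called means an adjusted p under 0.05 and a change of at least 1.5-fold by the quasi-likelihood test of edgeR, adjusted by Benjamini-Hochberg over 16990 genes. The same test called 0.235% of all genes tested. At an unadjusted p under 0.05 edgeR counted 0 of the 2, beside 24.1% of all genes. DESeq2, which called 9.85% of the genes it tested, and limma voom also called 0 members, and each gave Crybb3 alone an unadjusted p under 0.05 (0.0416 by DESeq2 and 0.0294 by limma voom). The filter asked for the level of 10 counts in the median library, 0.374 CPM without TMM, in at least 3 libraries. Crybb3 reached it in 2 of 4 WT and 3 of 3 LC3b-/- libraries and Crybb1, the nearest member left out, in 2 of 7 libraries. The other 7 members did not pass. With no filter, 5 of them had counts in both genotypes, and edgeR gave these adjusted p from 0.548 (Crybb1, log2 fold change -1.36) to 0.994 (Crygs, -0.04). A change in the 7 was not detectable at this depth.

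Cryab (ENSMUSG00000032060, GRCm39 chr9:50651859-50668567, plus strand), the small heat shock protein alpha B-crystallin, did not differ detectably between the genotypes. The WT libraries (F1, F2, F3 and M1, the order used throughout) held 274.8 CPM in F1, 235.8 CPM in F2, 277.4 CPM in F3 and 291.1 CPM in M1, and the LC3b-/- libraries (F1, F3 and M, likewise) held 269.6 CPM in F1, 210.1 CPM in F3 and 266.1 CPM in M. The groups overlapped: the highest library was WT M1, and LC3b-/- F3 was the only library below every WT library. Means were 269.8 ± 23.8 CPM in WT (SD, n = 4) and 248.6 ± 33.4 CPM in LC3b-/- (SD, n = 3). The log2 fold change was -0.12 (SE 0.15, adjusted p = 0.649, edgeR), and an exact two-sided permutation test over the 35 splits of the mice gave p = 0.400, where the smallest possible is 0.0286. The 95% interval ran from -0.46 to 0.22 on the log2 scale, or from 0.728 to 1.165 times the WT level, so that neither a 1.5-fold rise nor a 1.5-fold fall lay inside it. Without LC3b-/- F3 the log2 fold change was -0.03.

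Cryab was among the higher mRNAs of these preparations. Per kilobase of its main transcript (1690 bases) it averaged 154.3 CPM per kb, above 98.86% of the 28517 genes with a count and a length. Rpe65, the isomerase of the visual cycle and a defining RPE gene, averaged 1149 CPM per kb, and Hspb1, the small heat shock protein Hsp27, averaged 110.9 CPM per kb. The order of Cryab and Hspb1 depended on the library and on the length used. Cryab and Hspb1 averaged 159.6 and 68.4 CPM per kb in WT and 147.1 and 167.7 in LC3b-/-. By this length, LC3b-/- F1 was the only library with Hspb1 above Cryab, at 255.9 and 159.5 CPM per kb. Hspb1 was below Cryab in LC3b-/- F3 (115.8 and 124.3) and in LC3b-/- M (131.3 and 157.4), as in every WT library. With all annotated exons as the length, they averaged 59.25 and 97.35 CPM per kb over the 7 libraries.

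The level of Cryab varied little from mouse to mouse. Its highest library was 1.386 times its lowest, its coefficient of variation over the 7 libraries was 10.7%, and the SD of its log2 CPM was 0.163. Of the 1000 genes nearest to it in level, 17.8% had a smaller SD, and their median SD was 0.290. Over the same libraries the summed RPE markers varied 3.33-fold from lowest to highest, the endothelial markers 4.22-fold, the photoreceptor markers 208.5-fold and the ocular surface markers 860.3-fold. Muller glia and astrocyte markers varied 1.33-fold, inner retina markers 1.69-fold, macrophage and microglia markers 2.03-fold, and lens and smooth muscle markers 2.24-fold each. Skeletal muscle markers varied 2.93-fold and fibroblast markers 4.92-fold. The glial sum, at 3150 to 4191 CPM, thus varied slightly less than Cryab. Glial markers differed among themselves. Gfap, the intermediate filament of astrocytes, ran from 7.98 to 345.9 CPM over the 7 libraries, and Aqp4, a glial water channel, from 12.4 to 115.2 CPM. Glul, also on the glial list, ran from 1730 to 2180 CPM. Inner retina markers differed among themselves too. Most of their sum in every library was Slc6a9, at 208.7 to 502.7 CPM, and Trpm1, at 123.1 to 310.8 CPM. Of the lower markers, Grm6 ran from 0 to 6.094 CPM and Gad1 from 0.07689 to 7.999 CPM, while Prkca ran from 25.68 to 43.55 CPM. The inner retina sum therefore does not show how its lower markers varied. Skeletal muscle, where Cryab is abundant, was read from 16 markers, whose sum was 41.1 to 76.4 CPM in WT and 40.2 to 117.7 CPM in LC3b-/-, and the part of muscle or glial RNA in the level of Cryab was not tested. Of the 16 RPE markers, 15 had a lower estimate in LC3b-/-, with a median log2 fold change of -0.74 beside 0.01 over all genes, and 0 were called by edgeR, 8 having an unadjusted p under 0.05. Without WT M1 and LC3b-/- F1, the libraries with the most RNA of the corneal keratin Krt12 and the least photoreceptor RNA, the log2 fold change of Cryab was -0.14 (adjusted p = 0.762, edgeR), an alternative chosen after seeing the data.

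**Figure D2:**
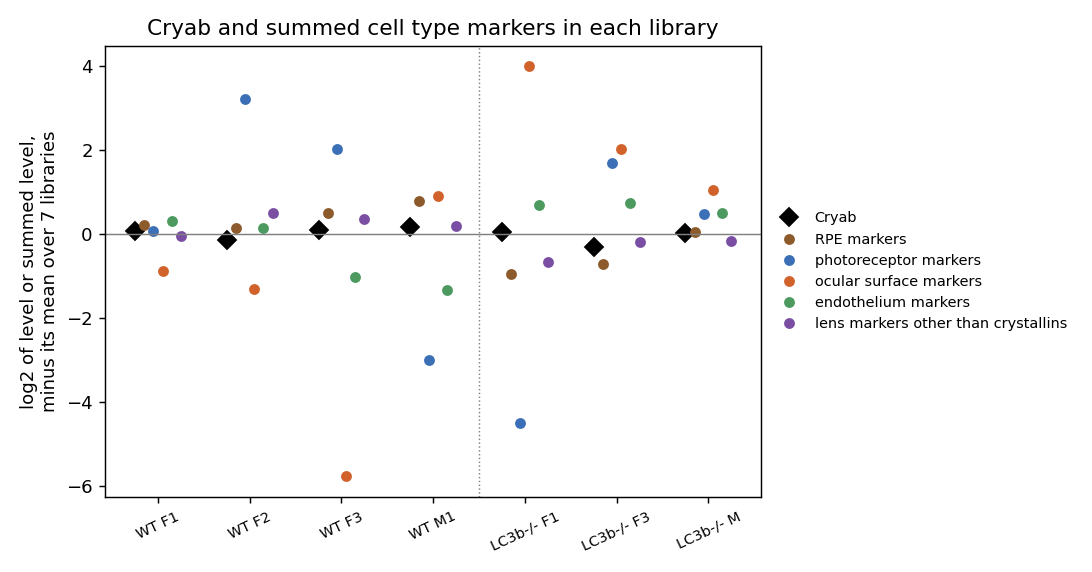
Cryab (diamonds) and summed markers of 5 tissues (circles) in each library, as log2 of the level in CPM minus its mean over the 7 libraries, with WT on the left of the dotted line and LC3b-/- on the right. Cryab stays close to 0 in every library, while the ocular surface sum runs from 32.4 CPM in WT F3 to 27900 CPM in LC3b-/- F1 and the photoreceptor sum from 106 CPM in LC3b-/- F1 to 22180 CPM in WT F2.

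The 3 genes whose log2 CPM followed Cryab most closely were Usp46, a deubiquitinase, with Pearson's r = 0.989 over the 7 libraries, Gm45620 with r = 0.980, and Lamp2, a lysosomal membrane protein, with r = 0.971. Lamp2 was at 243.3 CPM in LC3b-/- F3 and 353.9 CPM in WT M1, the libraries in which Cryab too was lowest and highest. Usp46 was likewise lowest in LC3b-/- F3, at 18.98 CPM, and highest in WT M1, at 33.7 CPM. These correlations describe 7 libraries that share the same scaling factors, and 116 of the 16989 genes compared had r over 0.9.

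Cryab overlaps Hspb2, a small heat shock protein gene on the opposite strand, by 1481 bases, of which 757 were exonic in both. The library kit marked strand, but whether counting used it is not given in the sources used here, so reads from the shared bases may be assigned to either gene. Hspb2 had 153, 49, 81 and 101 counts in the 4 WT libraries, and 83, 118 and 116 counts in the 3 LC3b-/- libraries. Cryab also overlaps 2310030G06Rik on the opposite strand, by 6039 bases, 871 of them exonic in both, and that gene had 92 to 204 counts. Its log2 fold change was -0.48 (SE 0.30, adjusted p = 0.355, edgeR). The counts of Hspb2 were far below those of Cryab, which had 5692 to 9391, and the groups overlapped (log2 fold change -0.05, SE 0.31, adjusted p = 0.936, edgeR).

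Cryaa (ENSMUSG00000024041, chr17:31896781-31900707, plus strand), the other alpha crystallin and the more lens-restricted of the pair, was at or near 0. It had 2 counts in WT F2, 8 counts in LC3b-/- F3 and 0 in the remaining 5 libraries. No WT library exceeded the limit of 3 counts, and LC3b-/- F3 was the deepest library, with 35616134 counts. Its 8 counts came to 0.201 CPM.

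Of the acidic beta crystallins, Cryba1 (ENSMUSG00000000724, chr11:77609441-77616120, minus strand) had 0 counts in all 7 libraries. Over the total of 208567426 counts this allows a level of up to 0.0144 counts per 1000000. Per kilobase, Cryab was at least 885.8-fold higher than Cryba1 in WT F2, the library with the loosest bound, taking the floor of 3 counts per library. Cryba1 lies inside Nufip2, a gene on the opposite strand that had 732 to 1675 counts, and the 2 genes share no exonic bases.

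Cryba2 (ENSMUSG00000006546, chr1:74929093-74932302, minus strand) had 3 counts in WT F3, 1 in LC3b-/- F3 and 0 elsewhere, all within the limit of 3 counts. Cryba4 (ENSMUSG00000066975, chr5:112394359-112402226, minus strand) had 3, 3, 1 and 11 counts in the 4 WT libraries and 1, 7 and 1 counts in the 3 LC3b-/- libraries. WT M1 was highest at 0.423 CPM, and the groups overlapped (exact two-sided permutation p = 0.514).

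Among the basic beta crystallins, Crybb3 (ENSMUSG00000029352, chr5:113223705-113229450, minus strand) was the only one with enough counts to test. It had 27, 6, 16 and 7 counts in the 4 WT libraries, which came to 0.790, 0.249, 0.599 and 0.269 CPM. The 3 LC3b-/- libraries had 20, 43 and 49 counts, or 0.805, 1.08 and 1.45 CPM. The groups did not overlap, but the gap was narrow: WT F1 was at 0.790 CPM with an exact Poisson 95% interval of 0.521 to 1.15, and LC3b-/- F1 was at 0.805 CPM with an interval of 0.492 to 1.24. Among all genes tested, 22.3% did not overlap between groups in either direction.

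The mean of Crybb3 was 0.477 ± 0.264 CPM in WT (SD, n = 4) and 1.11 ± 0.322 CPM in LC3b-/- (SD, n = 3). The log2 fold change was 1.21 (SE 0.52, 95% interval -0.01 to 2.43, adjusted p = 0.210, edgeR), and the exact two-sided permutation p was 0.0571. The difference did not pass the threshold, and its interval held both no change and changes above 1.5-fold. In females alone the log2 fold change was 0.78 (adjusted p = 0.547, edgeR), and without WT M1 and LC3b-/- F1 it was 1.20 (adjusted p = 0.522, edgeR). The sum of endothelial markers also stood higher in every LC3b-/- library, at 1380 to 1638 CPM against 388.4 to 1211 CPM in WT. So did the sum of ocular surface markers. Single markers of both lists, such as Vwf and Krt12, overlapped between the groups. The part of either tissue in the level of Crybb3 was not tested.

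**Figure D3:**
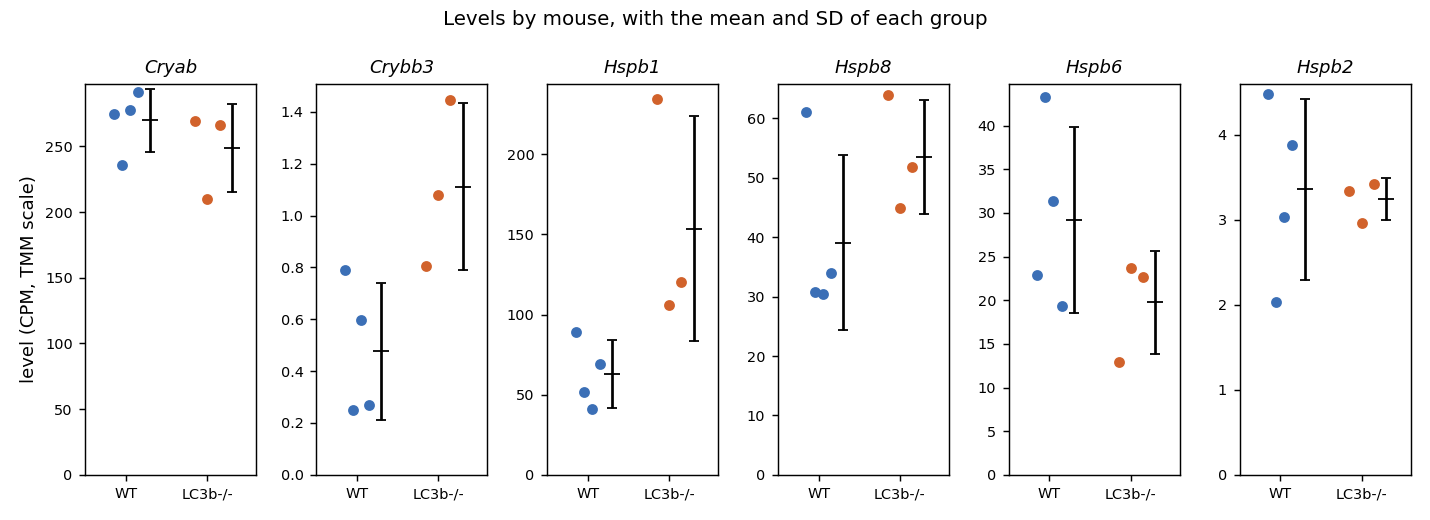
Level in CPM of the mRNAs of Cryab, of Crybb3 and of 4 small heat shock proteins related to Cryab in each mouse (blue, WT, n = 4; orange, LC3b-/-, n = 3), with the group mean (dash) and SD (bar) to the right of the points. The groups overlap for Cryab, Hspb8, Hspb6 and Hspb2 and do not overlap for Crybb3 and Hspb1, and LC3b-/- F1 is the highest Hspb1 point at 234.4 CPM.

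Crybb1 (ENSMUSG00000029343, chr5:112400811-112417965, plus strand) had 0, 21, 7 and 10 counts in the 4 WT libraries and 1, 12 and 3 counts in the 3 LC3b-/- libraries. Levels ran from 0 in WT F1 to 0.870 CPM in WT F2, and the spread within WT covered every LC3b-/- library (exact two-sided permutation p = 0.486). Crybb1 and Cryba4 lie head to head on opposite strands and overlap by 1416 bases, 100 of them exonic in both. The transcripts of Crybb1 also matched 53 other genes on the same strand at 95% identity or more, over up to 141 bases, so its few counts are uncertain. The other 8 members had no such match on the same strand. On the opposite strand, Cryab matched 4 other genes over up to 594 bases and Crygs 1 over 390 bases. Opposite-strand matches of Cryba1 (10 genes), Crybb1 (70 genes), Cryaa (1 gene) and Cryba4 (1 gene) were shorter, at up to 157 bases. Whether counting used strand is not given in the sources used here.

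Crybb2 (ENSMUSG00000042240, chr5:113206124-113217983, minus strand), the neighbour of Crybb3, had 5 counts in WT F3 and 0 in the remaining 6 libraries. Crygs (ENSMUSG00000033501, chr16:22623953-22630327, minus strand), a gamma crystallin of adult lens fibres, had 12, 0, 3 and 0 counts in the 4 WT libraries and 7, 3 and 0 counts in the 3 LC3b-/- libraries. Its groups overlapped fully, with the highest library, WT F1, at 0.351 CPM (exact two-sided permutation p = 1.0).

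On the scale of CPM per kilobase of the main transcript, averaged over the 7 libraries, Crybb3 (0.904) followed Cryab (154.3). In each library Cryab was 90.07 to 530.0 times as high as Crybb3. Crybb1 (0.199), Cryba4 (0.162) and Crygs (0.134) came next, with SDs in WT of 0.261, 0.215 and 0.189 CPM per kb, so that these neighbours did not differ beyond their spread. With all annotated exons as the length, Crygs stood above Crybb1 and Cryba4. Crybb2 (0.0366), Cryaa (0.0323) and Cryba2 (0.0273) were lowest among the members with a count, and their order rests on 10 counts or fewer each.

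The 8 members other than Cryab were highest in differing libraries. Their summed level was 1.08 to 1.33 CPM in WT and 1.17 to 1.86 CPM in LC3b-/-, with means of 1.24 ± 0.115 CPM (SD, n = 4) and 1.53 ± 0.345 CPM (SD, n = 3). WT F2 was highest for Crybb1, WT F1 for Crygs, WT M1 for Cryba4, WT F3 for Crybb2 and Cryba2, LC3b-/- F3 for Cryaa and LC3b-/- M for Crybb3. Thus no library held the highest level of more than 2 of them.

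Other lens genes were read in the same libraries. The 6 clustered gamma crystallins Cryga to Crygf, all fibre cell proteins, held 5 counts in all, 4 of Cryga in LC3b-/- F3 and 1 of Crygd in WT F2, and Crygb, Crygc, Cryge and Crygf were at 0. Of the 15 lens markers outside the crystallin family, Foxe3, a lens epithelial factor, and Lenep were among those at 0 in all 7 libraries. Gja3, a fibre cell connexin, reached 3 counts at most, and Mip, the major lens water channel, had 3 to 23. The summed level of the list was 121.9 to 180.9 CPM in WT and 80.6 to 113.2 CPM in LC3b-/-, without overlap. Most of that sum was Tdrd7, an RNA granule protein, with 1437 to 3548 counts and Hsf4 with 251 to 619, followed by Bfsp2 and Lim2. Of 6 lens markers tested, 1 had a higher and 5 a lower estimate in LC3b-/-, with a median log2 fold change of -0.41, and 0 were called by edgeR, 2 having an unadjusted p under 0.05. The part of lens RNA in the low crystallin counts was not tested further.

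Crygn, a gamma crystallin that is made in retina and was not a member, was detected in every library. It stood at 7.61, 8.54, 10.8 and 9.69 CPM in the 4 WT libraries and at 8.05, 6.47 and 9.42 CPM in the 3 LC3b-/- libraries. The groups overlapped and the log2 fold change was -0.20 (SE 0.21, adjusted p = 0.581, edgeR). Per kilobase Crygn averaged 11.3 CPM per kb, between Cryab and Crybb3.

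The regulators of crystallin genes were present to differing degrees. Of 13 listed, 10 were tested, 4 with a higher and 6 with a lower estimate in LC3b-/-, and 0 were called by edgeR, 2 having an unadjusted p under 0.05. Maf, which binds the element whose core is marked in the promoters above, was at 43.5 to 51.7 CPM in WT and 33.0 to 44.8 CPM in LC3b-/- (log2 fold change -0.32, SE 0.14, adjusted p = 0.211, edgeR). Six3, an eye field factor, had a log2 fold change of -0.44 (SE 0.17, adjusted p = 0.182, edgeR). Hsf4, the heat shock factor of the lens, stood at -0.41 (SE 0.21, adjusted p = 0.270, edgeR). Foxe3 was at 0, and Sox1 was at 2.49 CPM in WT F1 and 1.04 CPM in WT F2 but at most 0.121 CPM in the other 5 libraries.

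Cryab was set beside its relatives among the small heat shock proteins. Of 7 listed, 5 were tested, 3 with a higher and 2 with a lower estimate in LC3b-/-, with a median log2 fold change of 0.45 beside 0.01 over all genes, and 0 were called by edgeR, 2 having an unadjusted p under 0.05. Hspb1 was at 89.3, 51.7, 40.8 and 68.9 CPM in the 4 WT libraries and at 234.4, 106.1 and 120.3 CPM in the 3 LC3b-/- libraries. Every LC3b-/- library was above every WT library, with a log2 fold change of 1.29 (SE 0.35, adjusted p = 0.107, edgeR). DESeq2 called Hspb1 (adjusted p = 0.00980), and no other gene of the list. Hspb7, best known from heart and muscle, had a log2 fold change of 1.51 (SE 0.55, adjusted p = 0.163, edgeR) at 0.290 to 3.14 CPM. Hspb8, a partner of Bag3, stood at 0.45 (SE 0.27, adjusted p = 0.344, edgeR) and Hspb6 at -0.56 (SE 0.33, adjusted p = 0.331, edgeR). The summed level of the list was 106.7 to 178.3 CPM in WT and 178.6 to 317.7 CPM in LC3b-/-, without overlap, and that sum leaves Cryab out.

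Among 22 heat shock chaperones and their factors, 9 had a higher and 13 a lower estimate in LC3b-/-, the median log2 fold change was -0.09, and 0 were called by edgeR, 4 having an unadjusted p under 0.05. Dnajb1, a co-chaperone of Hsp70, was at 38.3 to 78.6 CPM in WT and 93.8 to 291.6 CPM in LC3b-/-, a log2 fold change of 1.61 (SE 0.40, adjusted p = 0.0967, edgeR). The inducible Hsp70 gene Hspa1b stood at 1.18 (SE 0.36, adjusted p = 0.125, edgeR) and its near-identical neighbour Hspa1a at 0.49 (SE 0.21, adjusted p = 0.206, edgeR), and reads could be split between this pair. Hsp90aa1, a cytosolic Hsp90, stood at -0.75 (SE 0.21, adjusted p = 0.113, edgeR). DESeq2 called 3 of the 22, Dnajb1, Hspa1b and Hsp90aa1, beside 9.85% of all genes it tested. The highest library for Hspb1, Dnajb1 and Hspa1b was LC3b-/- F1, which also held the most ocular surface RNA, at 27900 CPM. Cryab was at 269.6 CPM in that library, inside the WT range, and the part of ocular surface RNA in the chaperone levels was not tested.

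**Figure D4:**
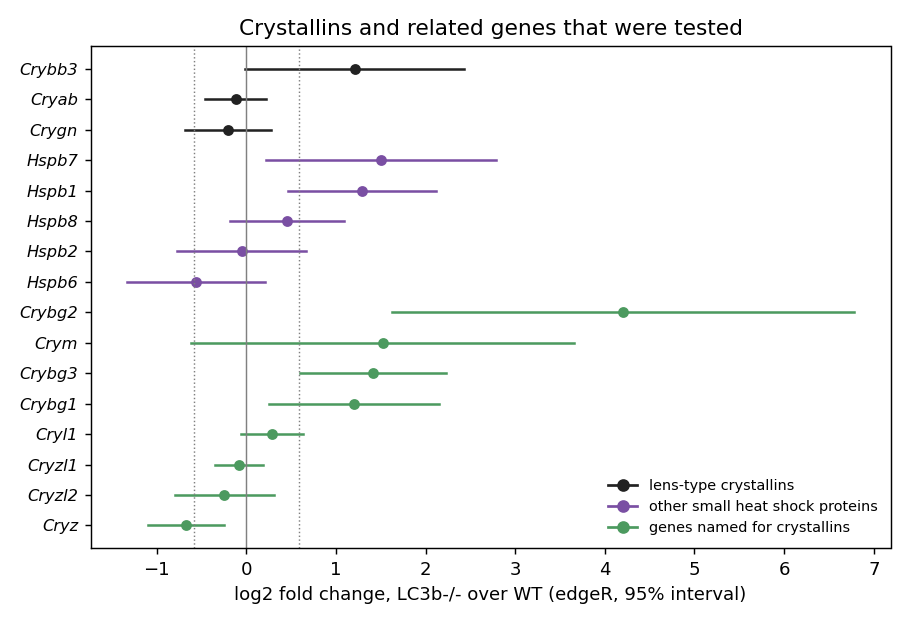
Log2 fold change of LC3b-/- over WT with its 95% interval from edgeR for the lens-type crystallins that were tested, other small heat shock proteins, and genes named for crystallins; dotted lines mark 1.5-fold. Cryab has an interval of -0.46 to 0.22, inside the dotted lines, and Crybb3 one of -0.01 to 2.43.

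A further 8 genes carry a crystallin name without being lens structural proteins of these families. All 8 were tested, 5 with a higher and 3 with a lower estimate in LC3b-/-, with a median log2 fold change of 0.75, and 0 were called by edgeR, 4 having an unadjusted p under 0.05. Crybg2 was at 0.187 to 5.15 CPM in WT and 8.03 to 104.8 CPM in LC3b-/-, a log2 fold change of 4.21 (SE 1.10, adjusted p = 0.103, edgeR). Crybg3 was at 15.7 to 26.2 CPM in WT and 27.9 to 79.3 CPM in LC3b-/-, a log2 fold change of 1.41 (SE 0.35, adjusted p = 0.0967, edgeR). Both proteins carry the fold of the beta and gamma crystallins, as does Crybg1, which stood at 1.20 (SE 0.40, adjusted p = 0.145, edgeR). All 3 were highest in LC3b-/- F1, and the part of ocular surface RNA in them was not tested. Cryz, a quinone reductase that serves as a crystallin in other mammals, was at 61.4 to 83.7 CPM in WT and 37.8 to 55.4 CPM in LC3b-/-, a log2 fold change of -0.67 (SE 0.18, adjusted p = 0.107, edgeR). DESeq2 called these 4 genes, beside 9.85% of all genes it tested. The enzymes that act as corneal crystallins, Aldh3a1, Aldh1a1 and Tkt, were all tested, and 0 were called by edgeR or had an unadjusted p under 0.05. Aldh3a1 ran from 3.60 CPM in WT F3 to 2459 CPM in LC3b-/- F1.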

How the data were processed

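Poly(A) RNA from RPE of 4 WT and 3 LC3b-/- mice was sequenced as stranded single reads of 1 library per mouse. The authors quantified reads with salmon against GENCODE transcripts (GRCm39) and used tximeta to obtain gene totals. Per the labels and the file, the authors deposited these estimated counts unscaled, as whole numbers. Multi-mapping reads were shared among transcripts by that estimate, which matters for members with few counts. Of 52740 genes, 28835 had a count and 16990 passed edgeR's filterByExpr. Groups were compared with edgeR (version 4.0.16, R 4.3.3) using TMM factors and the quasi-likelihood test and no covariates, and p-values were adjusted by Benjamini-Hochberg over the genes that passed. Called genes had an adjusted p under 0.05 and at least a 1.5-fold change. CPM are counts per 1000000 of the TMM-scaled library. Exact two-sided permutation tests used log2 CPM with a prior count of 2 over 35 splits. Alternatives were DESeq2 (1.42.0), limma voom (3.58.1), other scalings and filters, sex as a covariate, females only, a replicate block, and leaving out each library. Scripts were tested on simulated data. Coordinates are from GENCODE (GRCm39), to which 51721 gene identifiers matched, and promoters from RefSeq (GRCm38.p6). Transcript matches were found with BLAST (2.17.0) at 95% identity over 100 bases. All 9 members were named in every library. Of each other list, the genes called or else up to 4 with the smallest edgeR p were named, with the targeted gene, genes overlapping a member and the 3 genes most correlated with Cryab. Other genes of those lists, such as Maf, Hsf4 (as a regulator) and Crygn, were named after their values were seen where a count turned on them, and some listed genes are not reported here. The members and lists were chosen with earlier results of these data known.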

Additional observations from a re-analysis of the deposited data

Results flagged for a closer look

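In the WT group, 3 members had 1 library far from the other 3. Cryaa was at 0.0829 CPM in WT F2 (2 counts), Cryba2 at 0.112 CPM in WT F3 (3 counts) and Crybb2 at 0.187 CPM in WT F3 (5 counts), and each of these genes was at 0 counts in the remaining WT libraries. With 3 of 4 values at 0, any count meets the criterion (Dixon's ratio). Chance alone meets it in about 1 of 20 groups of normally distributed values, a rate that does not hold for counts this near 0. Only Crybb2 was above the limit of 3 counts.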

How the results depend on the processing

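The number of members called stayed at 0 in all 17 alternatives. The log2 fold change of Cryab was negative in all 17, from -0.21 to -0.03, with adjusted p from 0.451 to 0.921. That of Crybb3 was positive in all 16 that tested it, from 0.44 to 1.58, with adjusted p from 0.123 to 0.796, and it was not tested with at least 10 counts in every library. Leaving out 1 library gave -0.18 to -0.03 for Cryab and 0.97 to 1.58 for Crybb3. Only the names F1 and F3 are shared by the genotypes, and they belong to different mice. Their deviations from the group means correlated at 0.146 and 0.243, and nothing says that a number marks a shared litter or day. With the name as a replicate block, the values were -0.21 for Cryab and 0.44 for Crybb3 (adjusted p = 0.796, edgeR), and 0 members were called.

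Counts of called genes in the other lists were 0 with edgeR and depended on the test. DESeq2 called 9.85% of all genes it tested. Among listed genes with a DESeq2 estimate, it called 4 of 8 crystallin-named genes, 1 of 7 small heat shock proteins and 3 of 22 heat shock chaperones. It called 1 of 12 regulators (Sox1, which edgeR's filter left out), 6 of 16 RPE markers and 2 of 17 inner retina markers. It also called 1 of 10 Muller glia markers, 7 of 13 ocular surface markers, 1 of 7 smooth muscle markers and 1 of 8 endothelial markers. The cause of this dependence on the test was not tested. Sex as a covariate gave 1 crystallin-named gene (Cryz) and 2 RPE markers, and females only gave 1 ocular surface marker. Leaving out 1 library gave 0 to 1 crystallin-named genes (Crybg3), 0 to 2 chaperones (Dnajb1 and Hspa1b), 0 to 2 RPE markers (Lrat and Rrh) and 0 to 1 ocular surface markers (Sprr1a), each highest count without LC3b-/- M. The alternative without WT M1 and LC3b-/- F1 was chosen after seeing the data and called 0 members.

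Depth limits the 7 members that did not pass the filter, whose libraries held 21 counts or fewer each.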
